A study of Mus musculus with 17 samples.

Results

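The genes described here are 41 DNA replication and mitosis genes, a listed set read as a measure of proliferation in mouse embryonic stem (ES) cells that switch on a forkhead (Fox) transcription factor. They are 22 S phase genes and 19 G2/M genes, chosen by name, with transcripts summed per gene symbol, out of 53588 gene symbols in the deposited tables. All 41 passed the filter on low counts that left 19796 genes for testing. Polyadenylated RNA was sequenced from 5 ES cell lines, called iFoxA1, iFoxC1, iFoxG1, iFoxL2 and iFoxP3, in 17 libraries. Each line came from MC1 ES cells of strain 129S6/SvEvTac and carried, at Rosa26, 1 Fox coding sequence with a C-terminal His6-FLAG tag and a puromycin resistance gene, held off by doxycycline. At 0 h (6 libraries, 2 of iFoxA1 and 1 of every other line) the cells grew in medium with 15% serum, 1000 U/ml leukemia inhibitory factor and 0.2 µg/ml doxycycline. At 24 h (11 libraries, 3 of iFoxA1 and 2 of every other line) the doxycycline had been washed out and the cells had been moved to differentiation medium with 10% serum. Every 0 h to 24 h change therefore holds the Fox factor, the loss of doxycycline and the new medium together, and the samples include no transgene-free line.

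Before a cell copies its DNA, the MCM ring is loaded onto replication origins by Cdc6 and Cdt1 and is then switched on as a helicase by Cdc45 and the GINS complex. Later, cyclin B with Cdk1 drives entry into mitosis, the Aurora and Polo kinases build the spindle, the checkpoint kinases Bub1, Bub1b and Ttk hold the cell until every chromosome is attached, and Cdc20 with the anaphase-promoting complex lets it leave. S phase genes are typically transcribed through E2F factors and G2/M genes through promoters with a CHR element (cell cycle genes homology region) and CCAAT boxes, and ES cells, with a short G1 phase, express both groups at high levels.

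Library totals ran from 17666087 to 37177246 estimated counts. The 5 deepest, called the second library set here (32942465 counts or more), were replicate 3 of iFoxA1 and replicate 2 of the other lines, all at 24 h, and the Mir6236 gene read 31756 to 57882 TPM in them against 742 to 2544 TPM in the other 12, the first set. The 0 h libraries are all in the first set, so for the second set the time and the library set cannot be told apart. All 8 ES cell markers were above 1 TPM, and their summed level ran from 5100 to 6340 TPM at 0 h and from 3280 to 5490 TPM at 24 h. Fibroblast markers summed to 2.08 to 16.9 TPM, smooth muscle markers to 7.37 to 194 TPM and blood cell markers to 12.4 to 44.8 TPM (Hbb-bs at 0 throughout), and their part in the results below was not tested. As a check of the labels, Foxa1, Foxc1 and Foxp3 at 24 h read 21.8 to 184 TPM in their own lines, and Foxl2 read 78.1 TPM in iFoxL2 replicate 1 but 2.85 TPM in replicate 2.

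Promoters of 6 members whose levels changed are shown because the G2/M and S phase members differed in the short motifs they hold. The sequences are RefSeq promoters of the GRCm38.p6 build, 250 bases before to 50 after the transcription start, read 5′ to 3′ on the gene's strand. Capitals mark matches, on either strand, to a CHR (written TTTGAA in some genes and with the letters TTTAAA in others), a CCAAT box (CCAAT) or an E2F site (TTTCCCGC, TTTGGCGC, TTTCGCGC or TTTGCCGC). The first 3 belong to G2/M genes: Cdc20 (chr4:118437294-118437593, minus strand) and Plk1 (chr7:122159185-122159484, plus strand), which rose, and Ttk (chr9:83834439-83834738, plus strand), which fell. The last 3 belong to S phase genes: Mcm7 (chr5:138171834-138172133, minus strand), which rose, and Pcna (chr2:132253131-132253430, minus strand) and Rrm1 (chr7:102441445-102441744, plus strand), which fell.
Cdc20: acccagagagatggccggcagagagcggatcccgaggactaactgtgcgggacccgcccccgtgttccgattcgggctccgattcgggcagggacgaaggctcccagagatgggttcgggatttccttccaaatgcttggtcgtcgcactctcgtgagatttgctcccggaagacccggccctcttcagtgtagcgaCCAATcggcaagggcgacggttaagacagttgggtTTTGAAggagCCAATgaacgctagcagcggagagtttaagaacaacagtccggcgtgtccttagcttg
Plk1: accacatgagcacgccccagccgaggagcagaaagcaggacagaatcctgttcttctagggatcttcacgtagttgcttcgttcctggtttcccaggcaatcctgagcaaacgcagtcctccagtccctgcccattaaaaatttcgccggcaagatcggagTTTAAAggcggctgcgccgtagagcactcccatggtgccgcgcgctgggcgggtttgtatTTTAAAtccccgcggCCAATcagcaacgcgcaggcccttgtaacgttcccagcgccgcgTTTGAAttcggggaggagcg
Ttk: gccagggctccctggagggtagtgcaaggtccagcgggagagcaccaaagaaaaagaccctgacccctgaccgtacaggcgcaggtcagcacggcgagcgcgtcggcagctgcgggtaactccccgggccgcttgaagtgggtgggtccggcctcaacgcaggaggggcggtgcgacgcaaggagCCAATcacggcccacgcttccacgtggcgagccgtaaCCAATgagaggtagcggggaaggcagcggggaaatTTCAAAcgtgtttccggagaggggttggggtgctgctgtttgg
Mcm7: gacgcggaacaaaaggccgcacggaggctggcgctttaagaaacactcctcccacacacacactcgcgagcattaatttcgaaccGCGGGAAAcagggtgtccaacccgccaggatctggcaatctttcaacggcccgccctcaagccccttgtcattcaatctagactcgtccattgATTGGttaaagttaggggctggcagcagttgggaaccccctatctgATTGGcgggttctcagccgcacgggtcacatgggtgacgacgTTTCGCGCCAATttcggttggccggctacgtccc
Pcna: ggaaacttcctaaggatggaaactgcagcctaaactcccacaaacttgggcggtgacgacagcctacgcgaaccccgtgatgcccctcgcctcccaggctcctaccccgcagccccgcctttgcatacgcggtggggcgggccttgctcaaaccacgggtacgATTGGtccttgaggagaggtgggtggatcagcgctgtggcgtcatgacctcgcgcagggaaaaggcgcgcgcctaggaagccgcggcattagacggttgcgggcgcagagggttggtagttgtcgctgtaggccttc
Rrm1: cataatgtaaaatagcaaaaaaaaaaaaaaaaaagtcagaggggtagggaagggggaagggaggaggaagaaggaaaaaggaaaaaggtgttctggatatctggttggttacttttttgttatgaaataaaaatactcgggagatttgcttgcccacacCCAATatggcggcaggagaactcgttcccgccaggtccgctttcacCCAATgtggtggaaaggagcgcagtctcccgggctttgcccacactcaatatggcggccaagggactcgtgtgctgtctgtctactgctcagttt
Cdc20, Plk1 and Ttk each hold CHR and CCAAT matches, so genes that rose and a gene that fell share the pair. The Mcm7 promoter shown holds 2 E2F matches, one of which runs into a CCAAT box, and a second Mcm7 promoter in the table (chr5:138171217-138171516, minus strand) holds 0 E2F matches, 1 CCAAT match and 1 forkhead match. Pcna and Rrm1 hold CCAAT matches and no E2F match in this window.

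RefSeq promoters were matched for 34 of the 41 members, 36 promoters in all because E2f2 and Mcm7 have 2 each. The members without one in the table are Mcm4, Gins1, Gins2, Ccne2, Ccna2, Cdc25c and Aurkb. A CHR was in 15 of 16 G2/M promoters (93.8%, 95% Wilson interval 71.7 to 98.9%), in 7 of 20 S phase promoters (35.0%, 18.1 to 56.7%) and in 27.6% of all 32851 promoters of that length. The G2/M promoter without one was that of Bub1, a spindle checkpoint kinase. CCAAT boxes were in 93.8% of G2/M and 70.0% of S phase promoters, against 37.4% of all. E2F sites were in 8 of 20 S phase promoters (40.0%, 21.9 to 61.3%) and in 1 of 16 G2/M promoters (6.25%), that of Cdk1, against 2.26% of all. A forkhead motif (TGTTTAC in its usual form, with the variants TGTTTGC and as well TGTTTAT, on either strand) was in 15.0% of S phase and 6.25% of G2/M promoters, against 12.5% of all, and it was in the promoters of Cdc45, Mcm7, Tyms and Top2a. These are matches of letters and not measured binding, and the E2F and CCAAT letters can overlap, as in Mcm7.

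All 41 genes were expressed, with no fewer than 174 counts (E2f2) in any library. Per transcript length, the median level over the 17 libraries was highest for Pcna, the sliding clamp that holds the polymerase on DNA (574.5 TPM), followed by the mitotic kinase Cdk1 (348 TPM), its partner cyclin Ccnb1 (334 TPM) and the decatenating enzyme Top2a (291 TPM). It was lowest for the transcription factor E2f2 (5.40 TPM), the phosphatase Cdc25c (14.0 TPM) and the transcription factor E2f1 (15.2 TPM). The ratio of the highest to the lowest library, in CPM, ran from 1.33 for Mcm2 to 3.88 for Cdc20 with a median of 1.92, and it passed 2 for 19 of the 41. CPM here are counts scaled to a common library total with edgeR's TMM factors, and they are used for all comparisons of 1 gene between libraries.

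Averaged over the 5 lines, neither list moved as a block, and each held genes that rose and genes that fell. A quasi-likelihood test (edgeR, p adjusted by Benjamini-Hochberg over all genes) called 16 of 41 members (39.0%) in the average change from 0 h to 24 h, against 37.8% of all genes tested, so the members were called about as often as other genes. Of these, 6 rose (21.7% of all genes rose) and 10 fell (16.1% of all genes fell). Among S phase genes 3 rose and 6 fell, with a median log2 change of -0.02, and among G2/M genes 3 rose and 4 fell, with a median of 0.03, beside 0.04 for all genes. Both medians lie near 0, and the sign of the S phase median depended on the scaling. With library totals in place of TMM factors the medians were 0.02 (S phase) and 0.05 (G2/M). In that setting 8 members rose and 7 fell, with 37.2% of all genes called. The G2/M median was 0.007 with DESeq2 size factors but -0.09 in the first library set alone. limma on log2(TPM + 1) called 6 members, 5 of them rising, beside 23.3% of all genes, and kept 4 of the 16 calls, those of Cdc20, Plk1, Aurkb and Gins1. Leaving out the 2 libraries that stood apart (described below), an alternative chosen after seeing the data, kept all 16 calls and added 8, for 9 rising and 15 falling, against 52.9% of all genes.

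**Figure D1:**
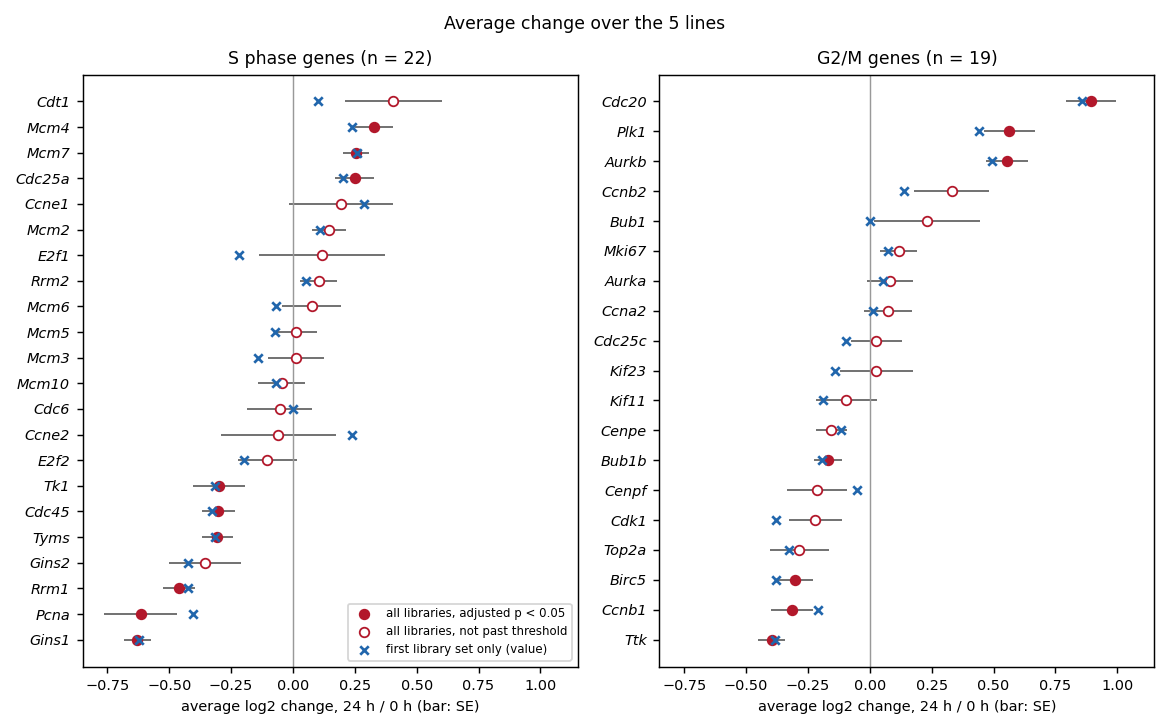
Average log2 change from 0 h to 24 h over the 5 lines for the 22 S phase genes (left) and 19 G2/M genes (right), circles with standard errors from the edgeR fit on all libraries (filled where the adjusted p passed 0.05) and crosses for the value in the first library set alone. The points spread on both sides of 0 in both panels, from -0.63 for Gins1 to 0.89 for Cdc20, and the crosses lie on the same side of 0 as every filled circle.

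Of the G2/M genes, Cdc20, the activator of the anaphase-promoting complex that starts mitotic exit (ENSMUSG00000006398.15, chromosome 4, 118432901 to 118437352 in mm10), moved most. In iFoxA1 it read 246 and 243 CPM at 0 h and 367, 404 and 425 CPM at 24 h. In iFoxC1 it read 180.1 CPM at 0 h and 603 and 699 CPM at 24 h, and in iFoxG1 219.8 and then 356 and 414 CPM. In iFoxP3 it read 219 and then 393 and 466.5 CPM, and in iFoxL2 247 and then 317 and 220.5 CPM. Replicate 2 of iFoxL2 was thus the one 24 h library within the range at 0 h, and the other 10 were above it. The average log2 change was 0.89 ± 0.10 (SE, adjusted p = 0.000184, edgeR), with 0.86 in the first set alone and 0.92 with the 24 h libraries of the second set alone. Within lines Cdc20 rose in iFoxC1 (1.85 ± 0.25, adjusted p = 0.00323), iFoxP3 (0.97 ± 0.24, adjusted p = 0.0446) and iFoxA1 (0.70 ± 0.17, adjusted p = 0.0309, edgeR). In fits that each left out 1 library, the call in iFoxC1 held in 16 of 16, that in iFoxP3 in 6 of 16 (adjusted p up to 0.164) and that in iFoxA1 in 12 of 17 (up to 0.202). The values in iFoxG1 (0.81, adjusted p = 0.0828) and iFoxL2 (0.12, adjusted p = 0.811, edgeR) did not pass. At 24 h the level of Cdc20 differed among lines (adjusted p = 0.0138, edgeR), with iFoxC1 highest, although without iFoxC1 replicate 2 the adjusted p was 0.0947, and the difference among the 5 changes did not pass (adjusted p = 0.142).

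Plk1, the Polo-like kinase of centrosomes and kinetochores (ENSMUSG00000030867.7, chromosome 7, 122159439 to 122169873), ran from 96.0 to 115.5 CPM at 0 h (median 104) and from 123 to 199 CPM at 24 h (median 148). Aurkb, the Aurora kinase of the chromosomal passenger complex (ENSMUSG00000020897.12, chromosome 11, 69045647 to 69051664), ran from 49.4 to 63.6 CPM at 0 h (median 55.0) and from 66.7 to 94.8 CPM at 24 h (median 82.7). In both genes every 24 h library lay above every 0 h library, which held for 4 members in either direction and for 8.70% of all genes. Plk1 rose by 0.56 ± 0.10 on average (log2, SE, adjusted p = 0.00269) and Aurkb by 0.55 ± 0.08 (adjusted p = 0.000918, edgeR). The second set gave the larger rise for Plk1 (0.70, against 0.44 in the first set), and Aurkb gave 0.63 and 0.50. Within lines Aurkb rose in iFoxG1 (0.80, adjusted p = 0.0492) and iFoxP3 (0.80, adjusted p = 0.0474, edgeR), where the calls held in 5 and 6 of 16 fits that each left out 1 library and were lost, for example, without replicate 2 of that line (adjusted p = 0.191 and 0.161). Plk1 passed in no single line, with values from 0.26 in iFoxL2 to 0.72 in iFoxC1.

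**Figure D2:**
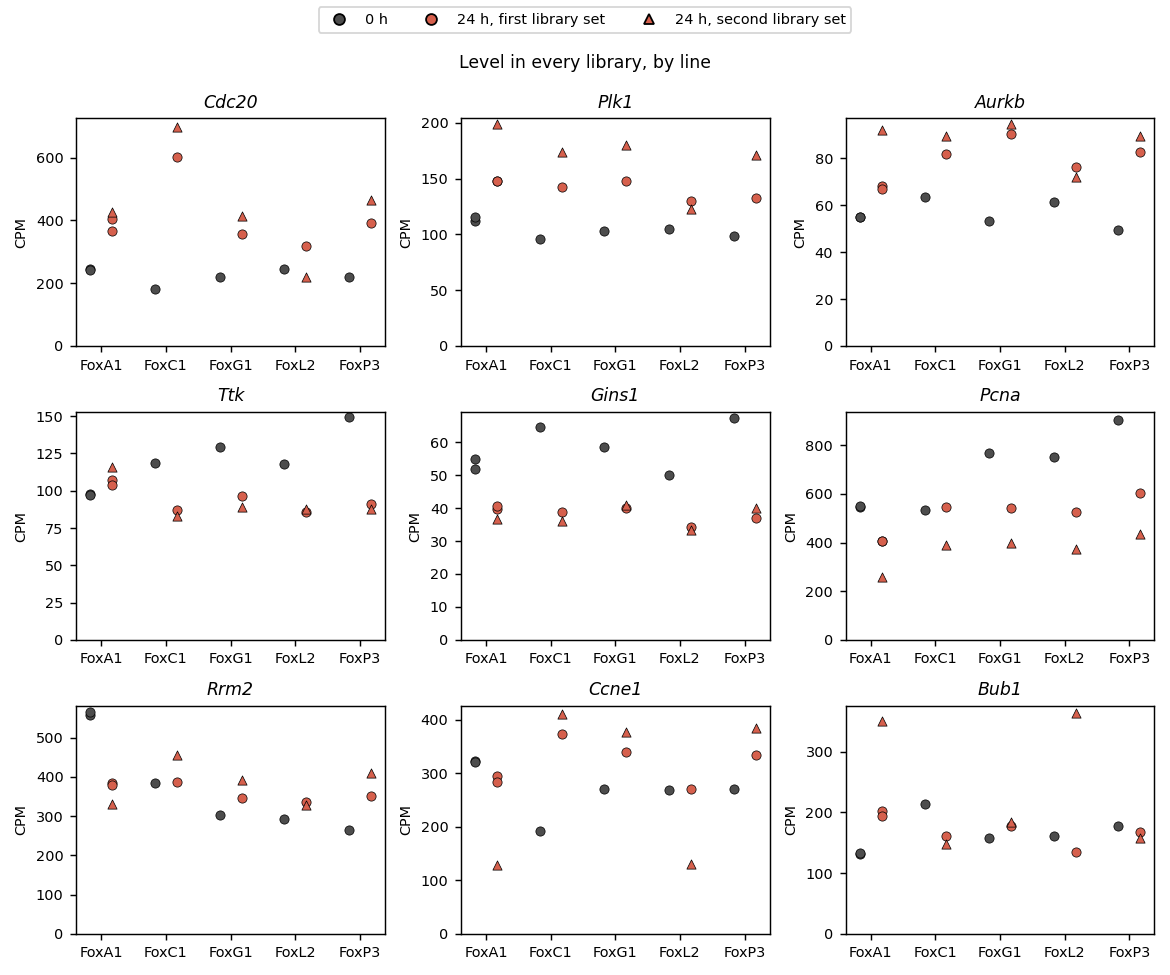
CPM of 9 members in all 17 libraries by line, each panel with its axis from 0, grey circles for 0 h, red circles for 24 h in the first library set and red triangles for 24 h in the second. Every red point of Plk1 and Aurkb lies above the grey points of all lines and every red point of Gins1 lies below them, while Ccne1 and Bub1 show the iFoxA1 and iFoxL2 triangles apart from the rest (128 and 131 CPM for Ccne1, 351 and 364 CPM for Bub1).

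Other G2/M members fell. Ttk, the Mps1 kinase of the spindle checkpoint (ENSMUSG00000038379.15, chromosome 9, 83834689 to 83872389), read 118, 129.5, 118 and 149 CPM at 0 h in iFoxC1, iFoxG1, iFoxL2 and iFoxP3, and between 83.0 and 96.7 CPM in their 8 libraries at 24 h. In iFoxA1 it read 97.7 and 97.1 CPM at 0 h and 107, 104 and 116 CPM at 24 h. The 0 h and 24 h libraries did not overlap within any line, and they parted downward in 4 lines and upward in iFoxA1. In those 4 lines this sets 1 library at 0 h against 2 at 24 h, which often part without any change. The share of all genes that part within every line is not given here. The average change was -0.40 ± 0.05 (SE, adjusted p = 0.000499, edgeR). The fall passed in iFoxP3 (-0.74, adjusted p = 0.0133) and iFoxC1 (-0.48, adjusted p = 0.0453, edgeR; held in 7 of 16 fits that left out 1 library), and the value in iFoxA1 was 0.16 (adjusted p = 0.351). The change in iFoxA1 minus the mean of the 4 others was 0.70 ± 0.12 (adjusted p = 0.0187, edgeR), one of the 2 line-specific calls among members.

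Ccnb1, the cyclin that activates Cdk1 for mitosis, ran from 437 to 719 CPM at 0 h (median 586) and from 352.5 to 608 CPM at 24 h (median 475), with overlap. It fell by 0.31 ± 0.08 on average (log2, SE, adjusted p = 0.0154), with -0.21 in the first set and -0.43 with the second, and the call was lost without the iFoxP3 0 h library (adjusted p = 0.0953, edgeR). Birc5, the survivin subunit of the passenger complex, fell by 0.30 ± 0.07 (adjusted p = 0.00956, edgeR), from a median of 153.5 CPM (141 to 182) to 126 CPM (113 to 146). In that complex Aurkb and Birc5 therefore moved in opposite directions. Bub1b, the BubR1 checkpoint protein, fell by 0.17 ± 0.06 (adjusted p = 0.0404, edgeR), but the call held in only 4 of 17 fits that each left out 1 library. The other 12 G2/M genes did not pass on average: their values ran from -0.28 for Top2a to 0.33 for Ccnb2, a second B-type cyclin, with Cdk1 at -0.22, the cyclin Ccna2 at 0.07, Aurka at 0.08, the centromere proteins Cenpe and Cenpf at -0.16 and -0.21, the spindle motors Kif11 and Kif23 at -0.10 and 0.03, Cdc25c at 0.03 and Bub1 at 0.23. Mki67, the Ki-67 protein that coats mitotic chromosomes and serves as a common proliferation marker, ran from 246 to 301.5 CPM at 0 h and from 233 to 364 CPM at 24 h, and its average change was 0.12 ± 0.07 (adjusted p = 0.245, edgeR).

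Among S phase genes, the 6 subunits of the MCM helicase all had average changes above 0, from 0.01 for Mcm3 to 0.33 for Mcm4, and 2 of 6 passed. Mcm7 (ENSMUSG00000029730.16, chromosome 5, 138164583 to 138172422) ran from 477.5 to 546 CPM at 0 h (median 530.1) and from 534 to 662 CPM at 24 h (median 613), with iFoxL2 replicate 2 the one 24 h library inside the 0 h range. It rose by 0.26 ± 0.05 (log2, SE, adjusted p = 0.00405, edgeR), with 0.26 in the first set and 0.25 with the second. Within lines it passed in iFoxC1 (0.47, adjusted p = 0.0424, edgeR), a call that held in 3 of 16 fits that left out 1 library. Mcm4 rose by 0.33 ± 0.08 (adjusted p = 0.00901), from a median of 276 CPM (226 to 313) to 332 CPM (269.5 to 399), and missed the threshold without the iFoxP3 0 h library (adjusted p = 0.0524, edgeR). The shared direction of the ring did not hold in the first set alone, where Mcm3, Mcm5 and Mcm6 had values below 0 (-0.14, -0.07 and -0.07). With DESeq2 size factors Mcm3 and Mcm5 were at -0.01 each.

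The 4 genes that act on the loaded helicase had average changes below 0. Gins1, a subunit of the GINS complex (ENSMUSG00000027454.10, chromosome 2, 150905400 to 150931280), read 51.8 and 54.8 CPM in iFoxA1 at 0 h and 39.7, 40.6 and 36.7 CPM at 24 h. In iFoxC1 it read 64.7 and then 38.7 and 36.2 CPM, and in iFoxG1 58.4 and then 39.9 and 40.8 CPM. In iFoxL2 it read 50.1 and then 34.4 and 33.3 CPM, and in iFoxP3 67.4 and then 36.9 and 40.1 CPM. No 24 h library reached the lowest 0 h library, in any line. Gins1 fell by 0.63 ± 0.05 on average (log2, SE, adjusted p = 4.04e-05), with -0.62 in the first set and -0.64 with the second, and it was the member called within all 5 lines, from -0.45 in iFoxA1 (adjusted p = 0.0172) to -0.81 in iFoxP3 (adjusted p = 0.0103, edgeR). The calls in iFoxG1 (adjusted p = 0.0445) and iFoxL2 (adjusted p = 0.0410) held in 5 of 16 fits that left out 1 library, and none of the 5 passed with limma on log2(TPM + 1).

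Cdc45, the helicase cofactor loaded beside GINS, fell by 0.30 ± 0.07 (log2, SE, adjusted p = 0.00649, edgeR), from a median of 82.2 CPM (71.6 to 94.0) to 68.8 CPM (49.3 to 87.0). At 24 h its level differed among lines (adjusted p = 0.0435, edgeR; held in 5 of 17 fits that left out 1 library), with 49.3 to 64.1 CPM in iFoxA1, 62.4 and 65.6 CPM in iFoxC1 and 83.8 and 87.0 CPM in iFoxL2. Mcm10, which helps to start the helicase, had -0.05 and did not pass. Gins2, another GINS subunit, had -0.36 (adjusted p = 0.0812, edgeR), with 102 and 104 CPM in iFoxA1 replicates 1 and 2 at 24 h, above every other library (50.7 to 100.5). Its gene overlaps Gse1 on the opposite strand by 2758 exon bases, 63.2% of its counts were on protein-coding transcripts, and the strand setting of the counting is not stated in the sources at hand, so its values are uncertain. Exons of other members overlap opposite-strand genes too: Cdc45 (Ufd1, 209 bases), Mcm7 (Ap4m1, 321, and Cops6, 64), Ccna2 (Exosc9, 510) and Cdc25c (Gm3550, 623). The same holds for Plk1 (Gm44985, 156 bases), Tk1 (Afmid, 83) and Cdc20 (Elovl1, 53), and the effect of these overlaps was not tested. The loaders did not pass: Cdc6 had -0.05, and Cdt1 had 0.41 (adjusted p = 0.130, edgeR), with 0.10 in the first set and 0.68 with the second.

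The clamp and the nucleotide-supply genes held the other falls. Pcna (ENSMUSG00000027342.14, chromosome 2, 132249162 to 132253314) ran from 535.5 to 903 CPM at 0 h (median 652), from 405 to 603.5 CPM in the 6 first-set libraries at 24 h and from 258 to 434 CPM in the 5 of the second set. The second-set library was the lowest of its line in each of the 5 lines. Pcna fell by 0.62 ± 0.15 on average (log2, SE, adjusted p = 0.00979, edgeR), with -0.41 in the first set and -0.91 with the second. The pseudogene Pcna-ps2, 99.2% identical over 781 bases, held counts equal to 30.9% of those of Pcna (at most 48.8% in a library), and adding them gave -0.53 (adjusted p = 0.00333). Rrm1, the large subunit of ribonucleotide reductase, which makes deoxynucleotides (ENSMUSG00000030978.10, chromosome 7, 102441695 to 102469771), ran from 340.2 to 474 CPM at 0 h (median 364) and from 254 to 315.5 CPM at 24 h (median 290.3), so that no 24 h library reached the 0 h range. It fell by 0.46 ± 0.07 (adjusted p = 0.000613), with -0.43 and -0.50 in the 2 sets, and within iFoxP3 by 0.62 (adjusted p = 0.0454, edgeR; held in 6 of 16 fits that left out 1 library).

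Tyms, thymidylate synthase, fell by 0.31 ± 0.06 (log2, SE, adjusted p = 0.00425), but 48.8% of its counts were on protein-coding transcripts, and with those alone it had -0.19 (adjusted p = 0.119, edgeR). Tk1, thymidine kinase, fell by 0.30 ± 0.10 (adjusted p = 0.0462, edgeR), a call that held in 5 of 17 fits that left out 1 library. Rrm2, the small subunit of ribonucleotide reductase, whose level limits the enzyme through the cell cycle, behaved otherwise. In iFoxA1 it read 557 and 565 CPM at 0 h and 385, 379.5 and 329.5 CPM at 24 h. In the other lines it read 383, 303.5, 291.5 and 264 CPM at 0 h (iFoxC1, iFoxG1, iFoxL2 and iFoxP3) and 328.5 to 456 CPM at 24 h. The iFoxA1 libraries were thus the highest of all at 0 h and lay among the other lines at 24 h. Rrm2 fell in iFoxA1 by 0.62 ± 0.13 (log2, SE, adjusted p = 0.0146, edgeR), while the values in the 4 other lines ran from 0.14 to 0.53 and did not pass. The change in iFoxA1 minus the mean of the 4 others was -0.91 ± 0.16 (adjusted p = 0.0197, edgeR), and the differences among lines at 0 h did not pass for Rrm2 (adjusted p = 0.0631).

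Of the 5 genes of S phase entry, Cdc25a, the phosphatase that activates cyclin E with Cdk2, passed on average. It rose by 0.25 ± 0.08 (log2, SE, adjusted p = 0.0311, edgeR), from a median of 108 CPM (95.5 to 119) to 130.3 CPM (99.0 to 138), a call that held in 6 of 17 fits that left out 1 library. Ccne1, cyclin E1, had 0.19 (adjusted p = 0.501), with 191 CPM at 0 h and 373 and 411 CPM at 24 h in iFoxC1, but 128 CPM in iFoxA1 replicate 3 and 131 CPM in iFoxL2 replicate 2. Without these 2 libraries, which were picked after their values were seen, its value was 0.34. E2f1 had 0.12, with -0.22 in the first set and 0.42 with the second. Cyclin E2 (Ccne2) had -0.06, with 0.24 and -0.53 in the sets. E2f2 had -0.10.

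**Figure D3:**
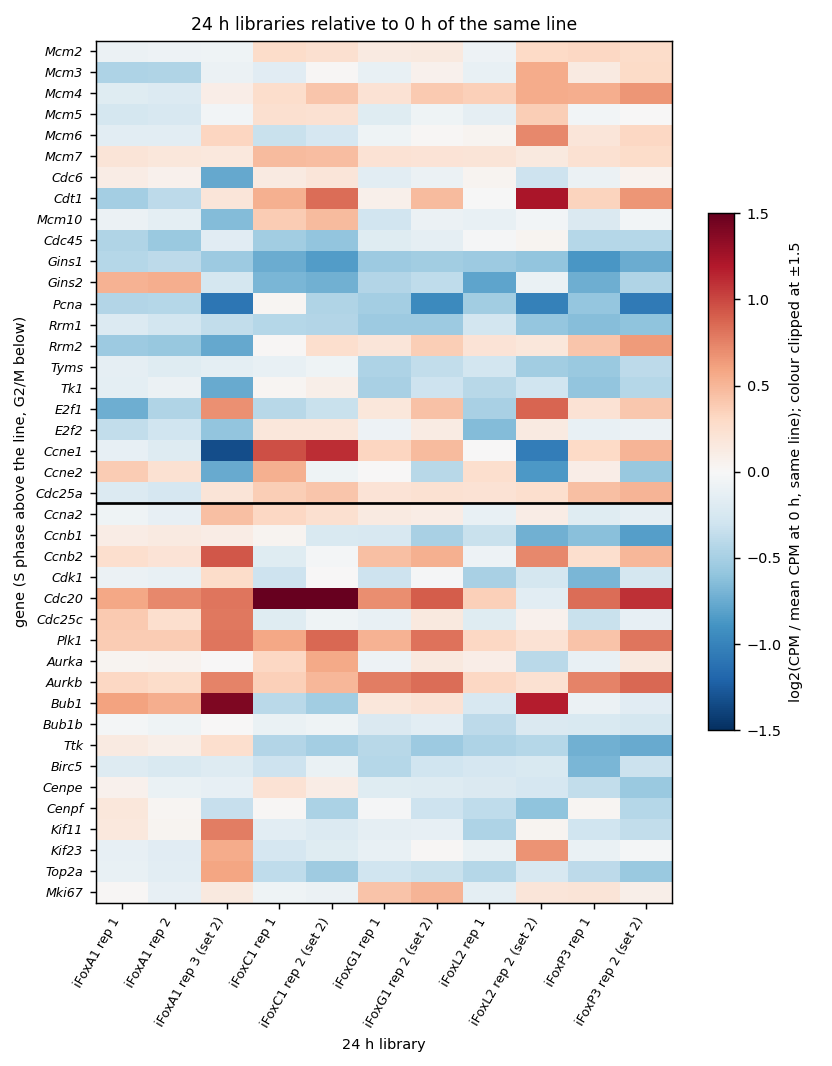
Log2 ratio of each 24 h library (columns, grouped by line, second-set libraries marked) to the mean CPM of the same line at 0 h for the 41 members (rows, S phase above the line and G2/M below), colour clipped at 1.5 in either direction. The row of Gins1 is blue in all 11 columns and those of Plk1 and Aurkb are red in all 11, while iFoxA1 replicate 3 and iFoxL2 replicate 2 differ from the replicates beside them, as in Ccne1 and Bub1.

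Within single lines, few members passed. In iFoxA1 3 passed (Cdc20, Gins1 and Rrm2), against 10.8% of all genes, in iFoxC1 4 (Cdc20, Mcm7, Gins1 and Ttk), against 9.73%, and in iFoxG1 2 (Aurkb and Gins1), against 5.64%. In iFoxL2 Gins1 alone passed, against 4.23% of all genes, and in iFoxP3 5 did (Cdc20, Aurkb, Gins1, Rrm1 and Ttk), against 6.05%. Over the lines, 6 pairs of member and line rose (4.36% of all pairs of gene and line) and 9 fell (2.93%). The share of members called ran from 2.44% in iFoxL2 to 12.2% in iFoxP3. Without the 2 libraries that stood apart, 26 pairs of member and line rose and 41 fell, and 20.0 to 32.4% of all genes were called in a line. Each of the 4 lines with 1 library at 0 h was tested with the spread pooled over all groups, so its lone library was assumed to vary like the others. The median log2 change of the S phase genes was lowest in iFoxA1 (-0.19) and highest in iFoxC1 (0.15), with -0.07, -0.03 and -0.02 for iFoxG1, iFoxL2 and iFoxP3. That of the G2/M genes was highest in iFoxA1 (0.12), with -0.10, -0.05, -0.13 and -0.18 for iFoxC1, iFoxG1, iFoxL2 and iFoxP3. In iFoxA1 4 of 22 S phase genes and 15 of 19 G2/M genes had values above 0, beside a median of 0.008 for all genes. The G2/M count leaned on replicate 3. Ccna2, Cdk1, Kif23 and Top2a lay above the 0 h libraries there but below them in replicates 1 and 2. Top2a read 1246 CPM there, 761 and 743 CPM in those replicates and 832 and 820 CPM at 0 h. Cenpf went the other way (168 CPM, then 240 and 218 CPM, against 215 and 210 CPM).

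The difference among the 5 changes was called for 0 members by edgeR (1% of all genes were called) and by limma on log2(TPM + 1), for 3 by DESeq2, and for 11 by edgeR without the 2 libraries that stood apart. At an unadjusted p under 0.05 edgeR gave 4 of 41, those of Ttk, Rrm2, Cdc20 and Ccnb1, against 14.1% of all genes. The line-specific test called Rrm2 and Ttk in iFoxA1 (4.88% of members, against 3.09% of all genes) and no member in another line, beside 0.857% of all pairs of gene and line. Both calls were lost when either iFoxA1 library at 0 h was left out (adjusted p from 0.140 to 0.164, edgeR) or replicate 1 at 24 h (0.0565 and 0.0574), with no filter (0.0556 and 0.147) and with limma on log2(TPM + 1) (adjusted p = 0.197 for Rrm2 and 0.449 for Ttk). Among lines at 0 h edgeR and limma called 0 members, with 0.495% of all genes called by edgeR, 3 members at an unadjusted p under 0.05 (12% of all genes) and 2 called by DESeq2. At 24 h edgeR called 2 members, Cdc20 and Cdc45, as given above, against 13.1% of all genes. The second-set libraries, 1 in each line, deviated together, and with the library set as a term edgeR called 10 members at 24 h, 3 at 0 h and 2 in the difference among the changes. Shares of all genes are not given for the counts by DESeq2, with the set term or without the 2 libraries. Those counts are therefore not read as results about the members.

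The mean log2 CPM of the S phase list minus that of the G2/M list gives the balance of the 2 groups in a library. In iFoxA1 it was 0.037 and 0.026 at 0 h and -0.301, -0.255 and -0.695 at 24 h. In iFoxC1 it was -0.211 at 0 h and -0.209 and -0.224 at 24 h, and in iFoxG1 -0.077 and then -0.224 and -0.213. In iFoxL2 it was -0.085 and then -0.058 and -0.079, and in iFoxP3 -0.134 and then -0.086 and -0.072. All 3 iFoxA1 libraries at 24 h lay below the 0 h libraries of every line, replicate 3 farthest. So did the iFoxG1 libraries at 24 h (-0.224 and -0.213) and iFoxC1 replicate 2 (-0.224), narrowly, as the lowest 0 h library was at -0.211. The 24 h libraries of the other lines lay between -0.224 and -0.058. Averaged over lines, the S phase mean changed by -0.07 (SD over lines 0.10) and the G2/M mean by 0.03 (SD over lines 0.13), both within the spread over lines. In bulk RNA, fewer cells in a phase and less RNA per cell cannot be told apart.

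**Figure D4:**
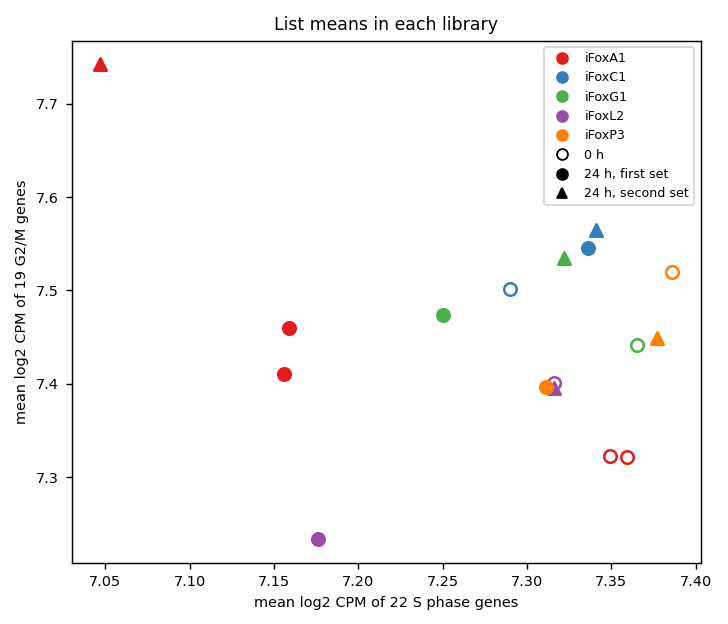
Mean log2 CPM of the 22 S phase genes (horizontal axis) and of the 19 G2/M genes (vertical axis) in each of the 17 libraries, coloured by line, open circles for 0 h, filled circles for 24 h in the first set and triangles for 24 h in the second. The iFoxA1 libraries move from 7.36 and 7.35 on the S phase axis at 0 h to 7.16, 7.16 and 7.05 at 24 h, and iFoxA1 replicate 3 stands apart at 7.74 on the G2/M axis.

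In the second set 2 libraries stood apart from their replicates. The median absolute log2 ratio of the second-set library to the first-set libraries of its line, over the 41 members, was 0.42 in iFoxA1 and 0.31 in iFoxL2, and 0.10 to 0.16 in the 3 other lines. For genes over 10 CPM as a whole it was 0.36 and 0.41, and 0.16 to 0.20. In iFoxA1 replicate 3, 13 members differed by over 1.5-fold from its fellow replicates, and in iFoxL2 replicate 2, 11 did, against 0 or 1 in the other lines. The share of all genes past 1.5-fold is not given here, so these counts are not read as a result about the members. Bub1 read 351 CPM in iFoxA1 replicate 3 (202 and 194 in replicates 1 and 2) and 364 CPM in iFoxL2 replicate 2 (136 in replicate 1), against 131 to 213 CPM in all other libraries. Cdc6 was lowest of all libraries in the same pair (59.2 and 80.4 CPM, 99.9 to 134 elsewhere), and Cdt1 reached 340 CPM in iFoxL2 replicate 2 (97.2 to 205.5 elsewhere). These are also the 2 libraries whose own Fox factor was far below its replicates (21.8 against 131 and 137 TPM for Foxa1, 2.85 against 78.1 TPM for Foxl2). All 8 ES cell markers were higher in each of them than in its fellow replicates, and their summed level was 5275 CPM against 2402 and 2467 in iFoxA1 and 5128 against 2311 CPM in iFoxL2, while in the 3 other lines 5 of 8 were higher in the second set. Esrrb, a nuclear receptor of ES cells, read 726 CPM (171 and 172 in its fellows) and 468 CPM (66.0). In iFoxL2 replicate 2 all 7 fibroblast markers were lower than in replicate 1, but they lay near the floor, none above 2.69 CPM in either library. The 5 smooth muscle markers summed to 24.9 CPM there against 139.5 CPM in replicate 1, with 4 lower and 1 higher. The part of these levels in the member values was not tested.

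Between the sets at 24 h, with the line in the model, edgeR called 8 of 41 members (20.9% of 18032 genes tested). Of these, 4 (Mcm3, Cdt1, Ccnb2 and Cdk1) were higher in the second set, as were 9.47% of all genes, from 0.29 for Mcm3 to 0.56 for Cdt1 (log2), and 4 (Pcna, Ccne2, Ccnb1 and Cenpf) were lower, as were 11.4% of all genes, from -0.23 for Ccnb1 to -0.81 for Ccne2. The calls of Ccnb1, Ccnb2 and Mcm3 held in 1, 2 and 2 of 11 fits that left out 1 library. With limma on log2(TPM + 1) 1 member was higher and 18 were lower, and the share of all genes in that test is not given here. On that scale 4 of the 8 turned direction, Mcm3 (-0.085), Ccnb2 (-0.028), Cdk1 (-0.73) and Cenpf (0.25). The sets did not overlap for E2f1, Ccne2 and Ccnb2 (11.4% of all genes did not overlap). Ccne2 read 23.5 to 31.5 CPM in the first set and 12.1 to 17.5 CPM in the second. Of the members called on average, Pcna and Ccnb1 are also among those called between the sets. Ccne2 overlaps Ints8 on the opposite strand, so its values are uncertain as well.

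Other genes of the same pathways, from lists of 42 further replication genes and 46 further mitosis genes, were read the same way. On average 1 of the 42 replication genes rose (21.7% of all genes) and 17 fell (16.1% of all genes), 42.9% called in all against 37.8%, with a median log2 change of -0.19 beside 0.04 for all genes. The falls with the smallest adjusted p were those of Gmnn, geminin, the inhibitor of Cdt1 (-0.65 ± 0.06), of the primase subunits Prim1 (-0.64 ± 0.08) and Prim2 (-0.42 ± 0.06), which lay the primers for DNA synthesis, and of Tipin, which protects stalled forks (-0.43 ± 0.06), with adjusted p from 4.04e-05 to 0.000624 (edgeR). The single riser was Pole, the catalytic subunit of a leading-strand polymerase (0.36 ± 0.08, adjusted p = 0.00920, edgeR), named after its value was seen. Of the 46 mitosis genes 10 rose and 8 fell, 39.1% called against 37.8% of all genes, with a median of -0.08. Pttg1, securin, which holds back separase until anaphase, fell by 1.39 ± 0.08 (log2, SE, adjusted p = 6.40e-06, edgeR), and Cks2, a Cdk-binding subunit, by 0.54 ± 0.09. Incenp, the scaffold of the passenger complex, rose by 0.50 ± 0.07, and Ncaph, a condensin subunit, by 0.39 ± 0.06.

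Of 17 regulators that transcribe or restrain cell cycle genes, 6 rose on average, and the 4 with values below 0, down to -0.13, did not pass. That is 35.3% called, against 37.8% of all genes, of which 21.7% rose. Rb1, the retinoblastoma protein that holds E2F in check, rose by 1.25 ± 0.12 (log2, SE, adjusted p = 7.83e-05), and the repressors E2f6 and E2f8 rose by 0.76 ± 0.08 and 0.84 ± 0.10. Foxm1, a forkhead factor that activates G2/M genes, rose by 0.89 ± 0.11 (adjusted p = 0.000254, edgeR), beside Cdc20, Plk1 and Aurkb rising and Ttk, Ccnb1, Birc5 and Bub1b falling among the members. E2f5, another E2F family member, was the one gene of these 3 lists whose changes differed among the lines (adjusted p = 0.0133, edgeR).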

How the data were processed

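Per the submitters' processing notes, reads were quantified by Salmon 1.4.0, DESeq2 1.30.1 was among the tools and mm10 was the build. The annotation and strand setting are not given in the sources used here. The deposited estimated counts per transcript are not normalised, and the deposited TPM values are scaled to transcript length and library total. Both hold 137271 transcripts, of which 137225 were matched to GENCODE M21, and the other 46 (at most 0.0133% of a library) were left out. Estimated counts were summed per symbol, rounded, scaled with TMM, filtered with filterByExpr by group and fitted with edgeR 4.0.16 (R 4.3.3, quasi-likelihood) in 10 groups (line and time), with 7 residual degrees of freedom. Contrasts were the change within each line, their average, their differences and the levels among lines, and the library sets were compared with the line in the model. The Benjamini-Hochberg threshold was 0.05 over all genes. Nothing in the labels ties a replicate to its own culture, so p-values cover only the spread among these libraries, which may be technical, and Wilson intervals cover counting error only.

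Alternatives were other scalings, no filter, DESeq2 1.42.0, limma 3.58.1 on log2(TPM + 1), library set terms and leaving out libraries. Every member could be named, and of each other list up to 4 genes with the smallest adjusted p. The members and lists were chosen with earlier results of these data known. The model was tested on simulated data. For the average change it recovered 7.46% of changes of 0.5 (log2) and 82.1% of changes of 1. Within iFoxA1 it recovered 0% and 5.97% of these, and within iFoxC1 0% of either. Changes of 2 were recovered at 78.8% in iFoxA1 and 36.4% in iFoxC1. The simulation changed only 66 or 67 of 19796 genes at each size, fewer than were called in the data, so its adjusted p was harder to pass. Changes of 1 or less in a single line may have been missed here, though some were called. Their share cannot be read from the simulation. The level of the iFoxG1 factor is not reported here.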

Additional observations from a re-analysis of the deposited data

Results flagged for a closer look

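Rrm2, which encodes the small subunit of ribonucleotide reductase, had a line-specific change of -0.91 in iFoxA1 (adjusted p = 0.0197, edgeR), and the checkpoint kinase Ttk had one of 0.70 (adjusted p = 0.0187, edgeR). Each is listed because the test of the difference between the change in iFoxA1 and the mean change in the 4 other lines passed the threshold. For Rrm2 the 3 libraries of iFoxA1 at 24 h lay below both of its 0 h libraries, and for Ttk they lay above both.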

How the results depend on the processing

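No average call reversed under any alternative, and 11 of the 16 held in all 17 fits that each left out 1 library. With library totals in place of TMM factors, 2 G2/M genes fell on average and 2 members were higher in the second set. With no filter (37118 genes tested), 3 S phase and 1 G2/M genes fell on average, 1 pair of member and line rose and 0 fell in edgeR, 0 pairs were line-specific, 1 member differed among lines at 24 h, and 8 were higher in the second set. DESeq2 called 11 rising and 21 falling pairs, 5 line-specific pairs, 3 members whose changes differed among lines, 8 that differed at 24 h, 2 at 0 h, and 10 higher in the second set. With the library set as a term, 10 pairs rose and 25 fell, 8 were line-specific, 2 members differed among the changes, 10 among lines at 24 h and 3 at 0 h. The first set alone, whose spread comes from the iFoxA1 pairs only, gave 7 S phase genes rising and 13 falling, 9 G2/M genes falling, 56 pairs rising and 82 falling, 87 line-specific pairs, and 36, 37 and 40 members differing among the changes, at 24 h and at 0 h, with 63.2% of all genes called on average. limma on log2(TPM + 1) gave 1 S phase gene rising and 1 falling, 0 G2/M genes falling, 2 pairs rising and 0 falling, 0 line-specific pairs, 0 members differing at 24 h, and 1 member higher and 18 lower in the second set. Chosen after seeing the data were 3 alternatives. Adding the counts of Pcna-ps2 changed no count by over 1.5 times, and neither did protein-coding transcripts alone. Without iFoxA1 replicate 3 and iFoxL2 replicate 2 at 24 h, 5 S phase genes rose and 7 G2/M genes fell, 26 pairs rose and 41 fell, 17 were line-specific, and 11, 21 and 11 members differed among the changes, at 24 h and at 0 h. In the window from 100 bases before to 50 after the start, 0.0% of G2/M promoters held an E2F site, against 1.27% of all. Where no share of all genes stands beside a count in this section, the count is not read as a result about the members. The cause of the differences between settings was not tested.

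Leaving out 1 library gave 1 to 5 S phase genes rising and 5 to 7 falling on average, 3 to 4 G2/M genes rising and 2 to 5 falling, 1 to 10 pairs rising and 3 to 17 falling, 0 to 6 line-specific pairs, 0 to 2 members differing among the changes, 0 to 6 at 24 h, 0 to 1 at 0 h, and 1 to 4 members higher and 3 to 4 lower in the second set. The fewest rising S phase genes (1) and falling G2/M genes (2) came without the iFoxP3 0 h library, and the most rising S phase genes (5) without iFoxL2 24 h replicate 1. The fewest pairs (1 rising, 3 falling) came without iFoxA1 0 h replicate 1 or replicate 2, and the most (10 rising, 17 falling), with the most line-specific pairs and members differing at 24 h, without iFoxA1 24 h replicate 3. Without iFoxC1 24 h replicate 2 no member differed at 24 h, and without iFoxA1 24 h replicate 3 only 1 was higher in the second set.

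Replicate numbers were not taken as pairs. Deviations of same-numbered iFoxA1 libraries from their group means at 0 h and 24 h correlated at 0.0414 and 0.00265 across genes. That cannot decide whether they are pairs, because replicate 3 weighs on the 24 h mean and the 2 deviations at 0 h mirror each other. The other lines, with 1 library at 0 h, could not be checked. The 5 second-set libraries at 24 h, replicate 3 of iFoxA1 and replicate 2 of the other lines, deviated together, with correlations from 0.551 to 0.757 over their 10 pairs. The fit with the library set as a term takes up only a shift common to the lines. The median absolute log2 ratio between sets over the members was larger in iFoxA1 (0.42) and iFoxL2 (0.31) than in the others (0.10 to 0.16). With the replicate number as a block, 6 members rose and 13 fell on average, 17 pairs fell, 5 were line-specific, 8 members differed among lines at 24 h and 1 at 0 h.

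In the first set alone the average change took the other sign for Mcm3 (-0.14), Mcm5 (-0.073), Mcm6 (-0.067), E2f1 (-0.22), Ccne2 (0.24) and Kif23 (-0.14), the change in iFoxA1 for Mcm6 (-0.14), Kif23 (-0.13) and Top2a (-0.12), the change in iFoxL2 for E2f1 (-0.46) and Bub1 (-0.22), and the line-specific change for Tk1 in iFoxA1 (0.27) and for Ccnb2 (-0.23) and Bub1 (-0.27) in iFoxL2. limma on log2(TPM + 1) reversed the set difference for Mcm2 (-0.79), Mcm3 (-0.085), Mcm4 (-0.30), Mcm5 (-0.25), Cdc45 (-0.34), Rrm2 (-0.45), Cdc25a (-0.43), Ccnb2 (-0.028), Cdk1 (-0.73), Plk1 (-0.37), Bub1b (-0.45), Mki67 (-0.42) and Cenpf (0.25). All members had at least 174 counts in each library (lowest for E2f2).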

Other observations

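Of the 41 members, 12 had their highest CPM in the iFoxP3 0 h library, among them Gins1, Pcna, Rrm1, Tyms, Tk1, Ccnb1, Cdk1 and Ttk, and 5 had their lowest there, among them Mcm2, Mcm4 and Aurkb. In iFoxL2 replicate 2 at 24 h 7 members were highest and 6 lowest, in iFoxA1 replicate 3 at 24 h 6 and 6, and in iFoxL2 replicate 1 at 24 h 1 and 7. No member had its highest or lowest value in the iFoxL2 0 h library or in an iFoxG1 library of the first set. Shares of all genes with their extremes in these libraries are not given here, so the counts are not read as results about the members.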
